A study of Sus scrofa with 17 samples.

Results

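The comparison described here sets pigs that received cord blood cells, at either dosing schedule, against pigs that received vehicle, within the libraries whose names begin with M8 or M9. These are 12 of the 17 libraries of the series. The 7 dosed libraries are 3 from animals given repeated doses (multidose 5, 6 and 7) and 4 from animals given 1 dose (single dose 2, 3, 4 and 5), and the 5 vehicle libraries are vehicle control 1 to 5. The other 5 libraries, whose names begin with M1, all came from dosed animals and have no vehicle library beside them, so they entered no main test. Within the 12, the M8 names cover 5 dosed and 3 vehicle animals and the M9 names 2 dosed and 2 vehicle animals. What the names mean is not in the labels.

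All animals, controls included, carried right ventricular pressure overload. RNA came from whole right ventricular myocardium, 1 library per animal, extracted with TRIzol, and only RNA with an integrity number of at least 7 was used. The cells were umbilical cord blood mononuclear cells (UCB-MNC) placed into the heart muscle. The labels give neither the cell number, the number of repeat doses, the harvest time, the age, sex or weight of an animal, nor the species the cord blood came from. A ventricle that pumps against raised pressure thickens its muscle, re-expresses fetal genes such as the natriuretic peptides, lays down matrix and leans on its capillary bed and mitochondria to meet the added work. Cord blood mononuclear cells, a mixture of lymphocytes, monocytes and few progenitor cells, are tested as a cell therapy in this setting because of the factors they release, which act on vessels, inflammation and muscle. The genes below are therefore given by these roles.

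The libraries held 40621934 to 61144663 counts. Dosed libraries averaged 46320558 ± 4535144 counts (SD, n = 7) and vehicle libraries 53093598 ± 5562787 (SD, n = 5; p = 0.0429 in an exact two-sided permutation test with 792 regroupings, 0.129 when adjusted for 3 such tests). The share of counts on mitochondrially encoded genes was 18.7% ± 2.35 in dosed and 15.8% ± 2.88 in vehicle libraries (exact two-sided permutation p = 0.0922, adjusted p = 0.138). Ventricular muscle genes were abundant in every library, with MYL2, a ventricular myosin light chain, at 8707 to 17037 CPM (counts scaled to the library total) and MYH7, the slow myosin heavy chain, at 9704 to 37195 CPM. Of the vascular markers, PECAM1 stood at 193 to 328 CPM, and of the T cell markers CD3E stood at 1.39 to 6.09 CPM. Y-linked genes summed to 49.7 to 88.1 CPM in 8 libraries, 4 dosed and 4 vehicle, and to at most 0.101 CPM in the other 4, which are 3 dosed and 1 vehicle. A pair of libraries stood apart from the rest. Multidose 5 had the lowest score on the first principal component (-67.4, 20.1% of the variance), and vehicle control 4 had the lowest on the second (-54.8, 16.2% of the variance). On that second component all 8 M8 libraries scored above 0 and all 4 M9 libraries below it. Values without multidose 5 or vehicle control 4 are given below where these libraries move a result most.

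No gene passed an adjusted p of 0.05 between dosed and vehicle animals. Of 15662 genes tested by edgeR's quasi-likelihood test, 0 were called (0%), and the smallest adjusted p was 0.724. At an unadjusted p under 0.05 stood 688 genes, 4.39% of those tested, of which 256 were higher in dosed animals (1.63%) and 432 lower (2.76%), where 783.1 genes would be expected if no gene differed. DESeq2 called 1 gene, TSPOAP1, with 808 genes at an unadjusted p under 0.05, and limma-voom called 0, with 465. Without vehicle control 4 the count at an unadjusted p under 0.05 was 406. The median log2 fold change over all genes was 0.00 with 50.2% of genes positive. The TMM scaling of the libraries brings the bulk of genes near 0, so this median does not show that the groups are alike. The groups of 7 and 5 did not overlap for 14 genes that were higher in every dosed library (0.0894% of genes tested) and 21 that were lower (0.134%), together 35. Leaving out 1 library gave 43 to 137, since fewer libraries then have to stand apart. For a gene that does not differ, 1 of the 792 regroupings puts the dosed libraries all highest and 1 all lowest. Some of 15662 genes thus separate by chance, so groups without overlap are no sign by themselves that a gene differs. The count was not tested. The named genes that follow are those with the smallest p in each direction and those of the gene lists, and their values are descriptions of these 12 animals. A gene chosen for its p over all 12 tends to keep its sign among M8 and among M9 names, so that sameness is no separate evidence.

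**Figure D1:**
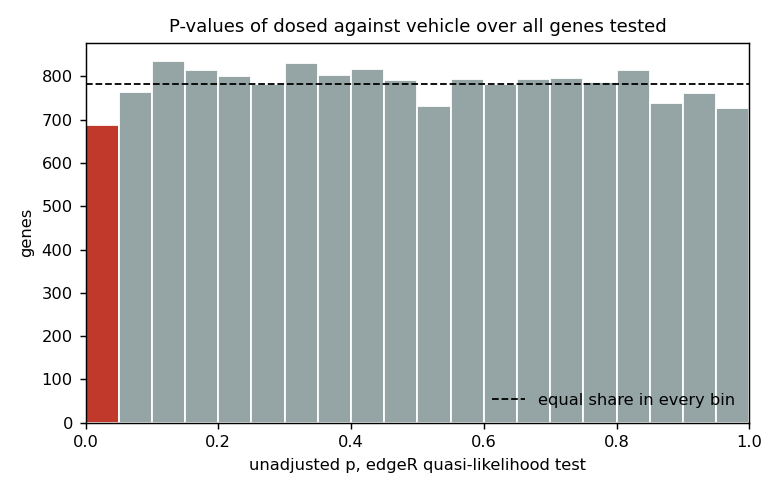
Number of genes (vertical axis) by unadjusted p from edgeR's quasi-likelihood test of dosed against vehicle (horizontal axis, bins of 0.05), with the dashed line at the equal share of 783.1 genes per bin. The first bin, in red, holds 688 genes and lies below the line.

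TSPOAP1 had the smallest p of all genes. Its product binds TSPO, the translocator protein of the outer mitochondrial membrane (ENSSSCG00000017638, Sscrofa11.1 chromosome 12, 34578698 to 34606623). Multidose libraries 5, 6 and 7 measured 3.50, 3.72 and 2.37 CPM, and single dose libraries 2 to 5 measured 1.53, 4.89, 4.93 and 3.09 CPM. Vehicle controls 1 to 5 measured 0.575, 0.475, 1.17, 0.646 and 1.35 CPM. Every dosed library was thus above every vehicle library, though single dose 2 and vehicle control 5 lay close together. The log2 fold change was 2.02 (SE 0.35; adjusted p, edgeR 0.724 and DESeq2 2.11e-05). Over 30 alternative settings the fold change stayed between 1.46 and 2.32 and the adjusted p ran from 2.11e-05 to 0.9999, past the threshold only with DESeq2. It was 2.32 among the M8 names, 1.46 among the M9 names and 1.93 without multidose 5 and vehicle control 4. Since all dosed libraries lay above all vehicle libraries, a positive value under both names was fixed in advance. The transcript is scarce in this tissue, and the difference is one of a few CPM.

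Among the other genes with higher values in dosed animals, several serve metabolism in the cytosol. AS3MT, an arsenic methyltransferase, ranged from 10.5 to 14.1 CPM in dosed libraries (median 12.1) against 9.82, 10.1, 8.47, 7.47 and 8.63 CPM in vehicle controls 1 to 5. The groups did not overlap, by a margin of less than 1 CPM. Its log2 fold change was 0.45 (SE 0.11; edgeR adjusted p = 0.984), with 0.41 among M8 and 0.50 among M9 names. GPD1, the cytosolic glycerol-3-phosphate dehydrogenase that links glycolysis to lipid synthesis, ranged from 26.1 to 85.3 CPM in dosed libraries (median 55.0) against 25.2, 23.9, 33.5, 8.82 and 21.2 CPM in the vehicle controls. Only multidose 7 of the dosed libraries fell below the highest vehicle value, and vehicle control 4 was far below the other controls. The log2 fold change of GPD1 was 1.251 (SE 0.32; edgeR adjusted p = 0.984) and 0.90 without multidose 5 and vehicle control 4. BLVRB, which reduces biliverdin and flavins, averaged 10.7 ± 1.07 CPM in dosed (SD, n = 7) and 7.59 ± 1.97 CPM in vehicle libraries (SD, n = 5), a difference of 0.50 on the log2 scale (SE 0.15). The groups overlapped through vehicle control 5, at 10.5 CPM.

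Further genes on the higher side were of mixed function. TRAF3IP3, an adaptor of lymphocytes, had a log2 fold change of 0.67, ST6GAL2, a sialyltransferase, 1.31, PPM1J, a protein phosphatase, 0.41, and RHBDL1, a rhomboid protease, 0.78. COA4, an assembly factor of cytochrome c oxidase, stood at 0.50. ERG28, a scaffold of sterol synthesis, was higher in every dosed library, at 17.5 to 21.9 CPM against 13.4 to 16.5 CPM, a log2 fold change of 0.28. CEL, a lipase, had a log2 fold change of 1.28 and overlapping groups. The adjusted p was 0.984 by edgeR for each of these 7 genes. CRYM, which binds thyroid hormone in the cytosol, stood at 3.47 on the log2 scale (SE 1.14; edgeR adjusted p = 0.984), a difference that rested on a few animals: single dose 2, 3 and 4 measured 2.503, 6.19 and 17.9 CPM and multidose 6 measured 1.35 CPM, while multidose 5 and 7 and single dose 5 measured 0.190, 0.365 and 0.333 CPM, within the vehicle range of 0.133 to 0.888 CPM.

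Of the 15 genes with the smallest p among those lower in dosed animals, 3 belong to the endothelial list, namely PEAR1, RGCC and FLT1. PEAR1, a receptor of platelets and endothelial cells, ranged from 30.5 to 41.5 CPM in dosed libraries (median 36.8), and vehicle controls 1 to 5 measured 57.7, 37.0, 76.7, 76.3 and 50.9 CPM. The groups overlapped only through vehicle control 2. The log2 fold change was -0.72 (SE 0.16; edgeR adjusted p = 0.984), with -0.67 among M8 and -0.74 among M9 names. ADGRG1, an adhesion G protein-coupled receptor, ranged from 49.5 to 61.9 CPM in dosed libraries (median 58.3) against 116, 62.7, 80.6, 89.5 and 81.8 CPM in vehicle controls. Here the groups did not overlap, with vehicle control 2 again the lowest control. Its log2 fold change was -0.59 (SE 0.13; edgeR adjusted p = 0.984) and -0.59 without multidose 5 and vehicle control 4.

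FLT1, the VEGF receptor 1, which binds VEGF-A and placental growth factor, measured 44.7, 66.2 and 102 CPM in multidose 5, 6 and 7 and 60.0, 66.6, 64.0 and 79.3 CPM in single dose 2 to 5. Vehicle controls measured 127, 77.4, 111, 175 and 99.5 CPM. Multidose 7 and single dose 5, both with M9 names, were the highest dosed libraries and overlapped with vehicle controls 2 and 5. The log2 fold change of FLT1 was -0.78 (SE 0.21; edgeR adjusted p = 0.984), with -0.80 among M8 and -0.59 among M9 names, and -0.51 without multidose 5 and vehicle control 4. RGCC, a cell cycle regulator that is abundant in endothelial cells, ranged from 35.2 to 52.9 CPM in dosed libraries (median 46.1) against 70.3, 55.7, 55.5, 84.1 and 66.2 CPM, without overlap and with a log2 fold change of -0.55 (SE 0.13). Multidose 7 was again the highest dosed library.

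The other leading lower genes were of mixed function. SPRY1, an inhibitor of receptor tyrosine kinase signalling, averaged 23.3 ± 2.82 CPM in dosed (SD, n = 7) and 33.3 ± 5.49 CPM in vehicle libraries (SD, n = 5), a log2 fold change of -0.52. SULF1, which trims sulfate from heparan sulfate chains at the cell surface, stood at -0.57 on the log2 scale. PTCH1, the hedgehog receptor, stood at -0.47 and PAPPA, a protease that frees insulin-like growth factors, at -1.58. The PAPPA value depended on vehicle control 4, at 4.77 CPM against 0.875 to 1.602 CPM in the other controls, and was -0.86 without it. OTUD1, a deubiquitinase, measured 27.3 CPM in vehicle control 4 against 7.84 to 10.4 CPM in the other controls, and its log2 fold change of -1.07 was -0.58 without that library. Both genes kept dosed and vehicle libraries without overlap. SERPINB9, the inhibitor of granzyme B, stood at 25.4 to 33.8 CPM in dosed and 33.8 to 49.2 CPM in vehicle libraries. DLG5, a scaffold of cell polarity, stood at 9.29 to 17.1 CPM and 17.1 to 31.0 CPM. Their log2 fold changes were -0.45 and -0.66, and in both the highest dosed and the lowest vehicle library were equal to within rounding. ZNF503, SYNE3, ZNF366 and ZHX3 had log2 fold changes of -0.71, -0.61, -0.50 and -0.38. The adjusted p was 0.984 by edgeR for every gene named in this paragraph.

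**Figure D2:**
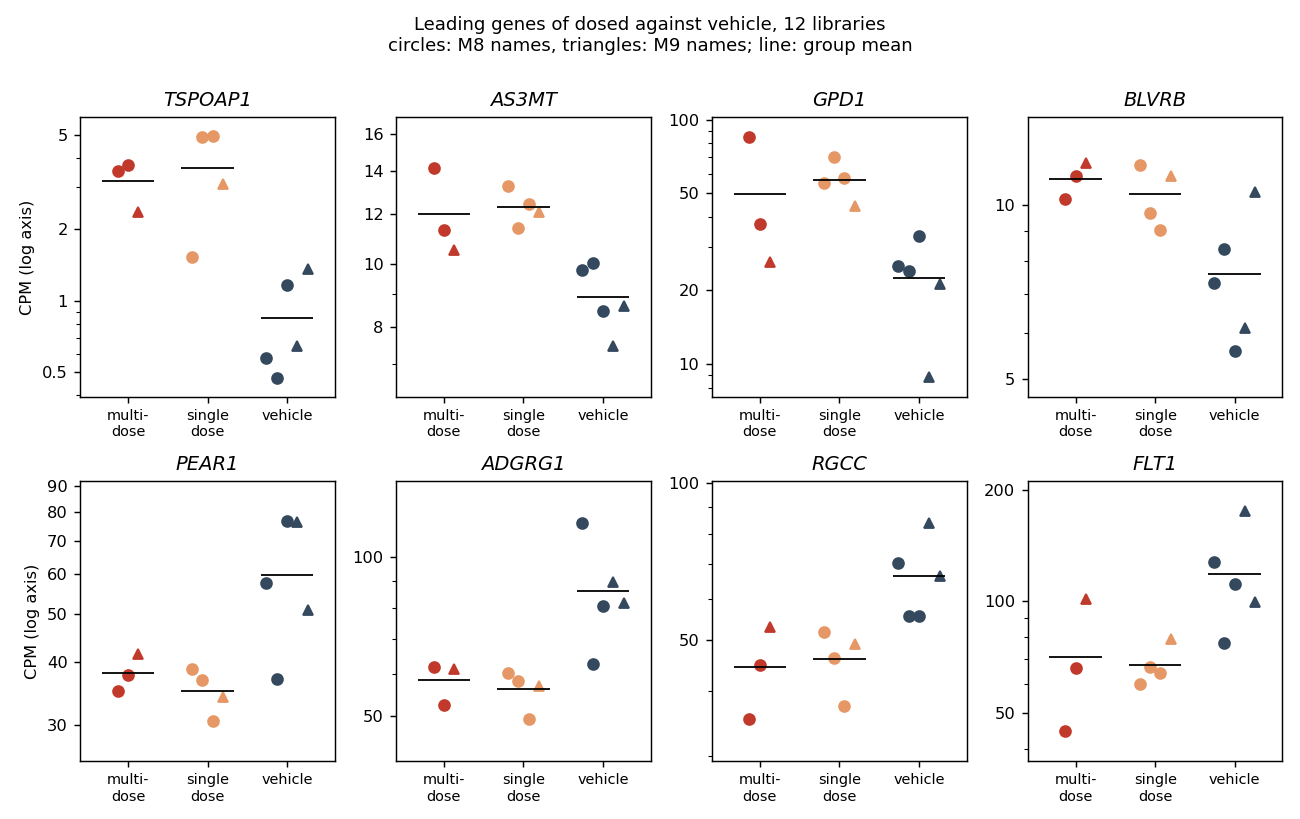
CPM of 8 leading genes (vertical axes, log scale) in each of the 12 libraries by dosing group (horizontal axes), circles for M8 and triangles for M9 names, with a line at the group mean. TSPOAP1, AS3MT, ADGRG1 and RGCC separate the dosed from the vehicle libraries, while GPD1, BLVRB, PEAR1 and FLT1 overlap.

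Endothelial markers as a list leaned the same way, with small values. Of 28 tested, 25 had a negative fold change and 5 of these an unadjusted p under 0.05 (17.9%, against 2.76% of all genes tested), 0 passed the adjusted threshold, and the median log2 fold change was -0.24 against 0.00 over all genes. This list shares PEAR1, RGCC and FLT1 with the leading genes above. BTNL9 had a log2 fold change of -0.68 (SE 0.24), while PECAM1, the adhesion molecule CD31, stood at -0.19 (SE 0.14). By library, the list median relative to the vehicle mean ran from -0.44 to 0.04 in dosed animals and from -0.41 to 0.30 in vehicle animals, and so overlapped. It was -0.34 among M8 and -0.02 among M9 names. Without vehicle control 1, the control with the highest list median, the median fold change was -0.14 and 7 of 28 members were positive. Without vehicle control 2, the control with the lowest, 10 members had an unadjusted p under 0.05, where 6.46% of all genes tested had one. In bulk tissue, fewer cells of a type and less RNA per cell cannot be told apart.

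The VEGF, Notch and angiopoietin genes, which guide the sprouting and maturing of vessels, were close to this picture. The lists share members, FLT1 among them, and are read in the same animals, so they do not give separate observations. Among 31 tested, 26 were negative, with a median of -0.23 and 0 past the adjusted threshold. Negative members at an unadjusted p under 0.05 numbered 6 (19.4%, against 2.76% of all genes tested). Without vehicle control 1 the median was -0.13 and 8 of 31 were positive. Besides FLT1, the receptor NOTCH4 stood at 60.1 ± 10.9 CPM in dosed (SD, n = 7) and 89.3 ± 24.8 CPM in vehicle libraries (SD, n = 5), a log2 fold change of -0.57. Its ligand JAG1 had a log2 fold change of -0.47 and the VEGF coreceptor NRP1 one of -0.41. VEGFA itself, the main ligand, measured 134 ± 38.3 CPM and 144 ± 37.8 CPM, a log2 fold change of -0.10 (SE 0.21) whose sign was positive among M8 names. As for the endothelial list, the median of -0.26 among M8 names was -0.02 among M9 names. 

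The glucocorticoid receptor target genes, which cortisol switches on, had the most uniform sign of the larger lists. All 22 tested were negative, 10 of them at an unadjusted p under 0.05 (45.5%, against 2.76% of all genes tested). The median log2 fold change was -0.54, and 0 passed the adjusted threshold. FKBP5, the cochaperone of the receptor, ranged from 20.8 to 67.1 CPM in dosed libraries (median 35.5) and stood at 48.2, 48.7, 65.5, 278 and 67.1 CPM in vehicle controls 1 to 5. Vehicle control 4 was also the highest control in PER1, a clock gene that the receptor induces, at 186 CPM against 77.4 to 95.3 CPM, and in CEBPD, at 94.3 CPM against 9.34 to 28.0 CPM. ZBTB16, a transcription factor of the same response, ranged from 9.02 to 30.6 CPM in dosed libraries and measured 21.4, 43.1, 43.5, 98.7 and 44.0 CPM in the controls. Only vehicle control 1 lay within the dosed range of ZBTB16. The log2 fold changes were -1.30 for FKBP5, -0.86 for PER1, -1.59 for CEBPD and -1.25 for ZBTB16, and -0.48, -0.58, -0.73 and -0.85 without vehicle control 4. The adjusted p was 0.984 by edgeR for each.

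By library, the median of the glucocorticoid list was 0.99 above the vehicle mean in vehicle control 4, between -0.37 and -0.12 in the other 4 controls and between -0.64 and -0.22 in the 7 dosed animals. Without vehicle control 4 the list median was -0.26, 17 of 22 genes were negative and 3 had an unadjusted p under 0.05. The median was -0.21 among M8 names, which do not hold that library, and -1.14 among M9 names, which do. SIK1, a salt-inducible kinase, followed the same library: vehicle control 4 measured 106 CPM and the other controls 15.01 to 40.5 CPM, and the log2 fold change was -1.32 in all libraries and -0.65 without it.

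Immediate early genes are the AP-1, EGR, NR4A and KLF factors that respond within minutes to stretch, hormones and handling. They had 20 of 26 members negative, with a median of -0.29. Of these, 6 had an unadjusted p under 0.05 (23.1%, against 2.76% of all genes tested). KLF6 measured 39.8 to 54.1 CPM in dosed libraries against 72.2, 46.9, 60.3, 82.1 and 60.9 CPM in the controls, with vehicle control 2 within the dosed range. FOSL2, KLF2 and ZFP36 had log2 fold changes of -0.61, -0.53 and -0.54, and KLF6 one of -0.45 (edgeR adjusted p = 0.984 for the 4). Those of FOSL2 and ZFP36 were -0.33 and -0.12 without vehicle control 4. Without that library, 1 member had an unadjusted p under 0.05 and the median was -0.07. The negative members at an unadjusted p under 0.05 numbered 2 without multidose 7, 3 without multidose 5, single dose 2, single dose 3 or vehicle control 1, 8 without vehicle control 2 or vehicle control 3 and 9 without vehicle control 5. Of all genes tested, 6.46%, 4.7% and 6.01% had one in either direction without vehicle control 2, 3 and 5. Of 18 circadian clock genes 14 were negative, 3 at an unadjusted p under 0.05 (16.7%, again against 2.76%), with a median of -0.15. RORA, an activator of the clock gene BMAL1, stood at 5.46 to 7.83 CPM in dosed and 7.90 to 12.6 CPM in vehicle animals, without overlap by a narrow margin, and NR1D2 had a log2 fold change of -0.31. The hour of harvest is not given in the labels.

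**Figure D3:**
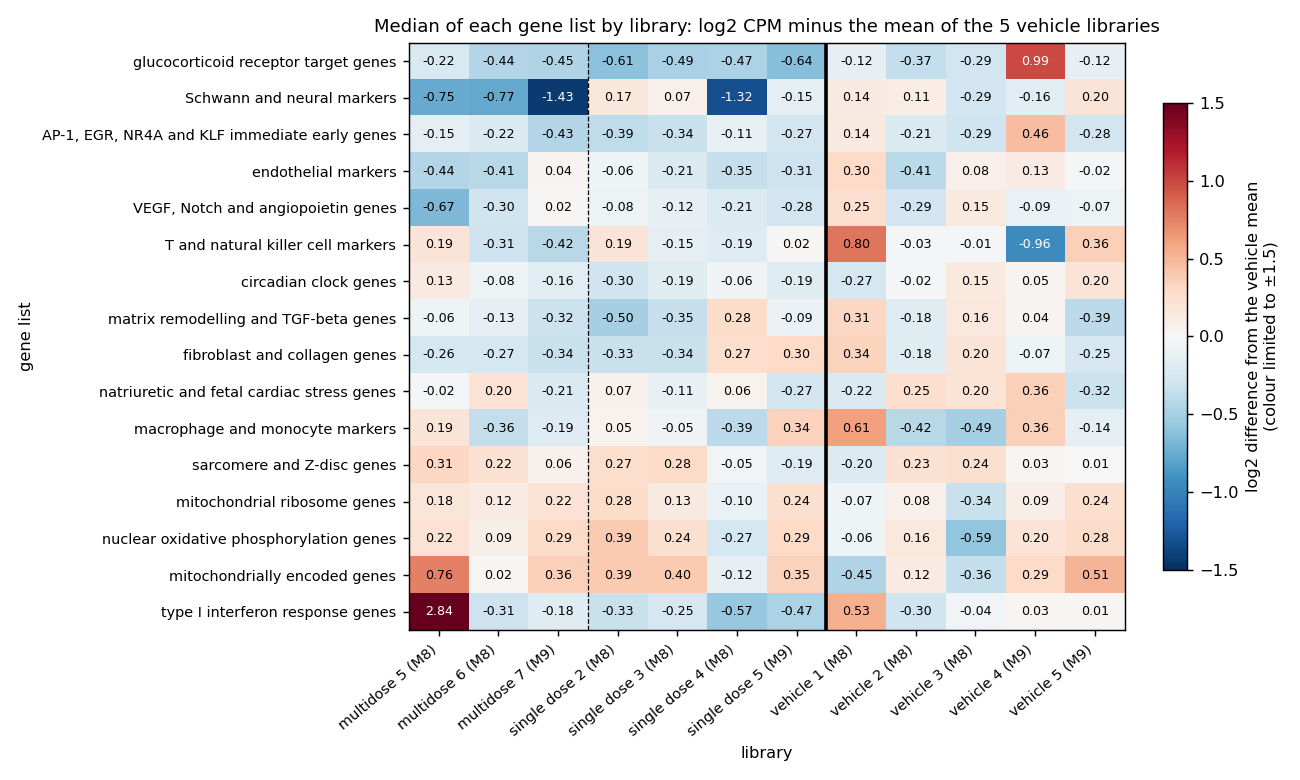
Median of each of 16 gene lists (rows) in each of the 12 libraries (columns), as the log2 CPM of the members minus the mean of the 5 vehicle libraries, with dosed libraries left of the thick line. Multidose 5 stands at 2.84 for the interferon list and vehicle control 4 at 0.99 for the glucocorticoid list, while most other cells lie within 0.5 of 0.

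Type I interferon response genes, the antiviral set switched on by interferon receptors, gave an average that 1 animal set. Of 28 tested, 26 were positive with a median log2 fold change of 0.62, yet 0 had an unadjusted p under 0.05 in either direction. ISG15, a ubiquitin-like interferon product, measured 1617 CPM in multidose 5 and 16.5 to 28.3 CPM in the other 6 dosed libraries, against 45.0, 23.1, 25.7, 34.5 and 31.8 CPM in the vehicle controls. RIGI, an RNA sensor, measured 409 CPM in multidose 5 and 15.1 to 34.5 CPM in the other dosed libraries, within or near the vehicle range of 19.03 to 35.1 CPM. USP18 and IFI44L showed the same split, at 70.1 and 541 CPM in multidose 5 against at most 11.5 and 51.6 CPM in the other dosed libraries. Without multidose 5 the list median was -0.41 and 1 of 28 genes was positive. In that setting 17 had an unadjusted p under 0.05, all negative, where 4.61% of all genes tested had one in either direction. The log2 fold changes without multidose 5 were -0.60 for ISG15, -0.16 for RIGI, 0.01 for USP18 and -0.15 for IFI44L. Among the controls, vehicle control 1 had the highest list median, 0.53 above the vehicle mean.

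**Figure D4:**
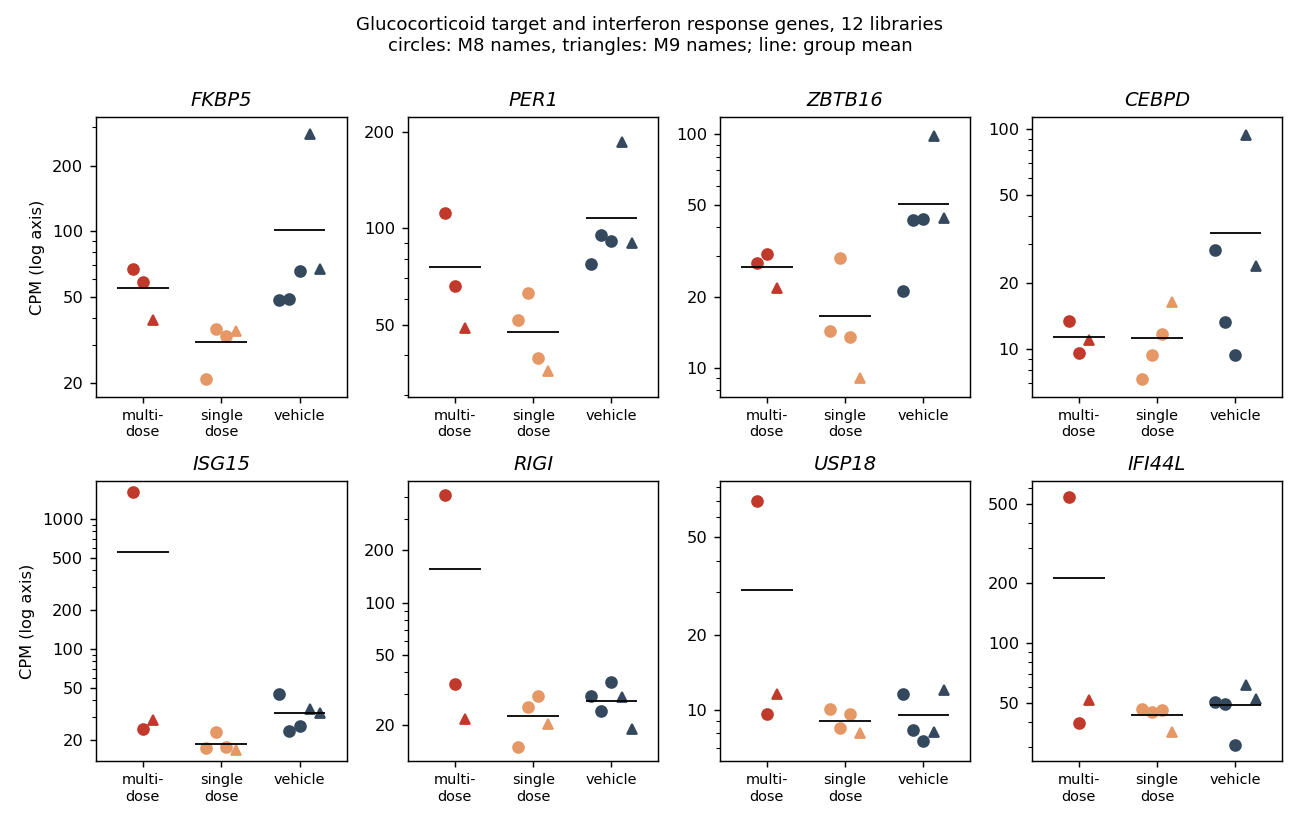
CPM of 4 glucocorticoid target genes (upper row) and 4 interferon response genes (lower row) on log axes in each of the 12 libraries by dosing group, circles for M8 and triangles for M9 names, with a line at the group mean. Vehicle control 4 is the single triangle at the top of the upper panels and multidose 5 the single circle at the top of the lower panels.

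Immune cell markers varied between single controls. Of the 26 markers of T and natural killer cells tested, 20 had a negative fold change, with a median of -0.19. Among the 20, 3 had an unadjusted p under 0.05 (11.5%, against 2.76% of all genes tested). CD8A, the coreceptor of cytotoxic T cells, stood at 3.04 to 4.73 CPM in dosed libraries (median 3.22) and at 11.6, 4.38, 5.28, 1.96 and 7.36 CPM in the controls, so that both the highest and the lowest library was a control. Its log2 fold change was -0.78 (SE 0.32), that of NCR1, a receptor of natural killer cells, -1.08 and that of the chemokine CCL5 -0.57. NCR1 was scarce, at -3.29 to -0.08 log2 CPM, and so below 1 CPM in every library. By library the list median ran from -0.96 in vehicle control 4 to 0.80 in vehicle control 1, relative to the vehicle mean, with every dosed library between them. Without vehicle control 1 the list median was 0.01 and 0 members had an unadjusted p under 0.05. That count was 1 without single dose 4 or vehicle control 5, 5 without multidose 5 and 6 without vehicle control 4. Of all genes tested, 4.61% had an unadjusted p under 0.05 without multidose 5 and 2.57% without vehicle control 4. Macrophage and monocyte markers split evenly, 10 positive and 11 negative of 21, with a median of -0.02. That split turned with single libraries, to 14 positive and a median of 0.22 without vehicle control 1 and to 4 positive and a median of -0.10 without multidose 5. CD163, a scavenger receptor of resident macrophages, measured 210 CPM in vehicle control 4 against 21.3 to 42.1 CPM in the other controls and 14.2 to 33.7 CPM in dosed animals. MARCO, another scavenger receptor, had a log2 fold change of -3.04 (SE 0.92) at levels of 0.144 to 1.77 CPM in dosed and 0.165 to 15.9 CPM in vehicle animals, and its fold change was -1.48 without vehicle control 1, the highest library. The part that different numbers of immune cells play in these values was not tested.

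Genes of mitochondrial energy supply had mostly small positive fold changes, whose size depended on single libraries. Of 61 nuclear genes of oxidative phosphorylation 59 were positive, with a median log2 fold change of 0.16, and 0 had an unadjusted p under 0.05. SDHC, a subunit of complex II, averaged 287 ± 32.1 CPM in dosed (SD, n = 7) and 241 ± 45.7 CPM in vehicle libraries (SD, n = 5), a difference of 0.25 on the log2 scale (SE 0.14), and CYC1, a subunit of complex III, had one of 0.25 (SE 0.15). Without vehicle control 3 the list median was 0.051 with 48 of 61 positive, and among libraries with the suffix _R it was 0.038 with 47 positive. By library the list median ran from -0.27 in single dose 4 to 0.39 in dosed animals and from -0.59 in vehicle control 3 to 0.28 in vehicle animals. All 13 mitochondrially encoded genes were positive, with a median of 0.29, which was 0.55 among M8 and -0.02 among M9 names. Without vehicle control 3 all 13 stayed positive, with a median of 0.203. The median was 0.202 without vehicle control 1 and 0.198 without multidose 5, with 12 positive in each case. Multidose 5 was highest, and its COX1, the catalytic subunit of complex IV, measured 92528 CPM where the other dosed libraries ranged up to 68715 CPM. ATP6 had a log2 fold change of 0.43 (SE 0.24).

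The mitochondrial ribosome, which translates the mitochondrially encoded genes, had 65 of 67 members positive, 3 at an unadjusted p under 0.05 (4.48%, against 1.63% of all genes tested) and a median of 0.14. These were MRPS23, MRPL16 and MRPL19, with log2 fold changes of 0.32, 0.30 and 0.28 (adjusted p = 0.984 by edgeR for each). Without vehicle control 3 the median was 0.071 and 49 of 67 members were positive. Without vehicle control 1 or without vehicle control 3, 0 members had an unadjusted p under 0.05. That count was 1 without single dose 2, single dose 3 or vehicle control 4, 6 without single dose 4 and 10 without vehicle control 5. Of all genes tested, 4.29% had an unadjusted p under 0.05 in either direction without single dose 4 and 6.01% without vehicle control 5. Members of a list are read in the same 12 animals, so the count of positive members is not a count of separate observations.

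The muscle and stress genes of the pressure-loaded ventricle did not separate the groups. NPPA, which encodes atrial natriuretic peptide, ranged from 594.9 to 4453 CPM in dosed animals (median 1106) and measured 988, 4841, 1702, 3698 and 822 CPM in the controls. Low and high libraries occurred in both groups, and the log2 fold change was -0.58 (SE 0.54), or -0.16 without vehicle control 2 and -1.08 without multidose 6. NPPB, which encodes brain natriuretic peptide, had a log2 fold change of -0.70 (SE 0.44) that was -0.18 without vehicle control 4. Among 19 natriuretic and fetal stress genes, 14 were negative with a median of -0.13. An unadjusted p under 0.05 was found for 1, a negative one (5.26%, against 2.76% of all genes tested). That count was 2 without vehicle control 1, vehicle control 2, vehicle control 5 or multidose 6. Of 24 sarcomere and Z-disc genes 19 were positive, with a median of 0.12, which was -0.08 among M9 names and 0.043 without vehicle control 1. MYL3, the slow ventricular essential light chain, averaged 5280 ± 762 CPM in dosed (SD, n = 7) and 4083 ± 507 CPM in vehicle libraries (SD, n = 5), a difference of 0.37 on the log2 scale (SE 0.15). TNNT2, cardiac troponin T, had one of 0.24 (SE 0.15).

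Matrix genes were likewise not separated. Of 28 matrix remodelling and TGF-beta genes 20 were negative, with a median of -0.15. Among the 20, 4 had an unadjusted p under 0.05 (14.3%, against 2.76% of all genes tested). SMAD7, the inhibitor of TGF-beta signalling, had a log2 fold change of -0.49, the receptor TGFBR2 one of -0.27, LOXL2, a collagen cross-linking enzyme, one of -0.35 and the aggrecanase ADAMTS4 one of -1.40, which was 0.01 without vehicle control 4. Leaving out vehicle control 1 or multidose 6 left 1 negative member of this list at an unadjusted p under 0.05, and leaving out vehicle control 4, vehicle control 3 or single dose 2 left 2. The median was -0.28 without vehicle control 5 and -0.26 without single dose 4. Among 27 fibroblast and collagen genes 23 were negative, with a median of -0.14, which was 0.03 among M9 names. An unadjusted p under 0.05 was found for 1 negative member (3.70%, near the 2.76% of all genes tested), or 0 to 4 when 1 library was left out. The median was -0.047 with 9 of 27 positive without vehicle control 3, and -0.23 without single dose 5. COL5A1 and COL6A3 had log2 fold changes of -0.38 and -0.36. COL1A1 and COL3A1, the main fibrillar collagens, measured 1165 ± 423 and 1715 ± 477 CPM in dosed (SD, n = 7) and 1266 ± 452 and 1773 ± 487 CPM in vehicle animals (SD, n = 5), with log2 fold changes of -0.12 (SE 0.26) and -0.05 (SE 0.22). Schwann and neural markers were negative in 12 of 12, with a median of -0.43 and 0 at an unadjusted p under 0.05, or 0 to 3 when 1 library was left out. That count was 6 in the fit with 3 groups and 5 over all 17 libraries with a covariate for M1 names. Of all genes tested, 4.24% and 4.85% had one in these fits. The median of these markers was -1.05 for multidose and -0.18 for single dose animals against the same controls. The list stood between -1.43 and -0.75 in the multidose animals and at -1.32 in single dose 4, and between -0.15 and 0.17 in the other single dose animals. In the controls it stood between -0.29 and 0.20.

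Pooling both schedules asks for what they share, so each was also set against the same 5 vehicle animals in a fit with 3 groups. The 2 comparisons share their controls and are given side by side only. For multidose against vehicle edgeR called 0 of 16178 genes (592 at an unadjusted p under 0.05, 3.66%, of which 1.5% positive and 2.16% negative), and for single dose against vehicle 0 (572, 3.54%, of which 1.4% positive and 2.13% negative), while DESeq2 called 0 and 8. The first count at an unadjusted p under 0.05 was 273 without multidose 5 and 1223 without multidose 7, and the second 342 without single dose 2 and 350 without vehicle control 4. TSPOAP1 had log2 fold changes of 1.91 for multidose and 2.09 for single dose, PEAR1 -0.65 and -0.77, ADGRG1 -0.55 and -0.61, FLT1 -0.74 and -0.81, and GPD1 1.14 and 1.33. The directly compared dosing groups also gave 0 calls by edgeR, with 417 genes at an unadjusted p under 0.05 (2.58%, of which 1.28% positive and 1.3% negative), or 229 without multidose 5 and 1002 without multidose 7. DESeq2 called 2 genes there, ATF3 and ACSM5.

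A few genes nevertheless differed widely between single animals within the schedules. ACSM5, a mitochondrial acyl-CoA synthetase of medium-chain fatty acids, measured 7.88, 10.7 and 7.01 CPM in single dose 2, 3 and 4 and at most 0.101 CPM in every other library, single dose 5 included. Its log2 fold change for single dose against vehicle was 7.23 (SE 1.17; adjusted p, edgeR 0.611 and DESeq2 0.000312), and by edgeR without single dose 5 it was 7.64 (adjusted p = 0.000143). Its adjusted p ran from 0.000143 to 0.9999 over the 10 of 13 alternative settings in which it was tested. With single dose 2, 3 or 4 left out, too few libraries expressed it to pass the low-count filter. It had too few expressing libraries for the filter of the pooled comparison. One of the 8 genes that DESeq2 called was NPR1, the receptor of atrial and brain natriuretic peptide, which had a log2 fold change of -0.87 (adjusted p = 0.999 by edgeR and 0.0497 by DESeq2, the lowest of 13 alternative settings, the highest being 0.9999). NPR1 measured 20.0, 17.1, 17.5 and 22.2 CPM in the single dose libraries, 31.1, 25.2 and 30.9 CPM in the multidose libraries and 33.5, 21.0, 35.9, 44.9 and 40.1 CPM in the controls. KIT, the stem cell factor receptor, and OPRD1, an opioid receptor, had log2 fold changes of -1.04 and -1.75 for single dose and -0.24 and -0.86 for multidose.

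ATF3, a stress-induced transcription factor, stood at 36.6, 23.2 and 28.2 CPM in multidose 5, 6 and 7, at 6.48, 5.603, 6.95 and 15.8 CPM in single dose 2 to 5, and at 12.2, 14.6, 5.55, 10.1 and 9.69 CPM in the controls. All 3 multidose libraries were above all the others. The log2 fold change of multidose against single dose was 1.75 (SE 0.36), with an adjusted p of 0.99996 by edgeR and 0.0458 by DESeq2, the lowest of 10 alternative settings. SPCS2, a subunit of the signal peptidase, and ANGPT2, the antagonist of the TIE2 receptor, had log2 fold changes of 0.98 and 1.18 between the schedules. Glial genes stood on the other side: the log2 fold changes of multidose against vehicle were -0.71 for LGI4, -1.45 for GPM6B and -1.09 for GFAP, and -0.83 for SNAI2, a factor of mesenchymal and neural crest cells, against -0.04, -0.31, -0.24 and -0.44 for single dose.

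The M8 and M9 names give 2 comparisons without a shared animal. Across 15407 genes the fold changes of the 2 subsets were all but unrelated (Pearson's r = 0.01, Spearman's rho = 0.02, given as a description across genes of the same tissue, which are not independent), and 51.1% of genes had the same sign. The 100 genes with the smallest p among M8 names were taken from those with a symbol, an average of 1 CPM or more and a test in both subsets. Of these, 56 had the same sign among M9 names. Among the 100, 9 had an unadjusted p under 0.05 there, 6 of them with the same sign. Of all genes tested among M9 names, without those limits, 3.8% had one. The test of the difference between the subsets called 0 of 16554 genes by edgeR (559 at an unadjusted p under 0.05, 3.38%, of which 2.08% positive and 1.29% negative, or 1022 without vehicle control 5) and 27 by DESeq2. Several of the named genes of this test were of dividing cells, and 3 of them are given here. CDC20, an activator of the anaphase-promoting complex, TK1, thymidine kinase, and E2F1, a driver of the S phase, had log2 fold changes of -0.59, -0.53 and -0.85 among M8 names and 2.42, 2.44 and 2.04 among M9 names. Their differences of 3.001, 2.96 and 2.88 had an adjusted p of 0.789 by edgeR and of 0.00251, 0.0129 and 0.0129 by DESeq2, the lowest of 13 alternative settings, the highest being 0.99996 for each.

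These values rested on few animals at low levels. CDC20 measured 0.589 and 1.251 CPM in vehicle controls 4 and 5 against 3.95 and 5.84 CPM in multidose 7 and single dose 5, all with M9 names. Among M8 names it measured 4.13, 1.57 and 2.97 CPM in the controls and 1.43 to 2.28 CPM in the dosed libraries. On the other side, CHORDC1, a cochaperone, TXNIP, the inhibitor of thioredoxin, and KLF9, another glucocorticoid target, were lower in dosed animals among M9 names, with log2 fold changes of -1.16, -1.54 and -1.22 there and 0.11, 0.11 and -0.10 among M8 names (adjusted p of the differences 0.810, 0.873 and 0.873 by edgeR). With 2 animals per arm among M9 names, what the name stands for and the single animals cannot be told apart.

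**Figure D5:**
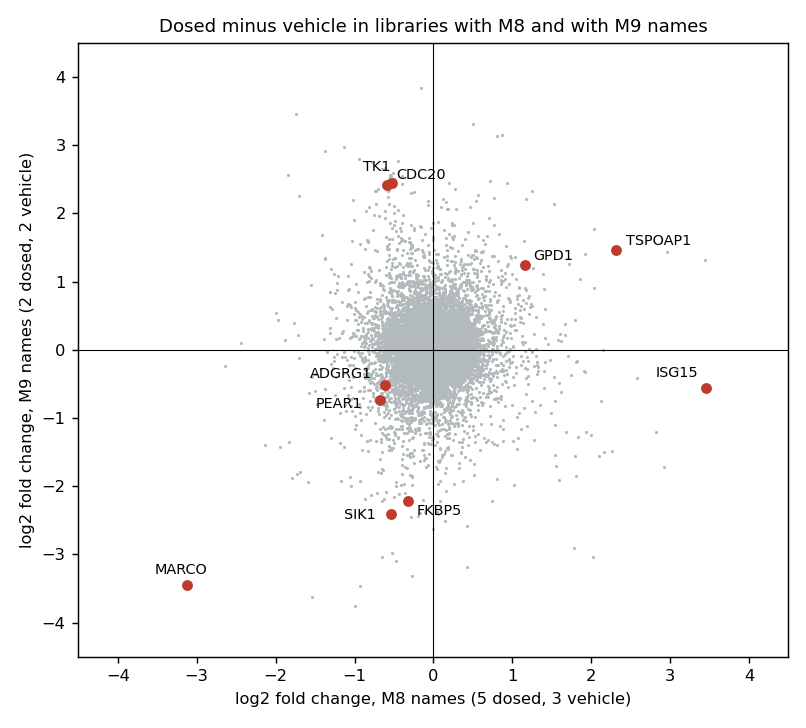
Log2 fold change of dosed against vehicle among M8 names (horizontal axis, 5 dosed and 3 vehicle libraries) and among M9 names (vertical axis, 2 and 2), each grey point 1 gene and named genes in red, with 5 genes beyond the axes left out. TSPOAP1, GPD1, PEAR1 and ADGRG1, which were chosen for their p over both subsets together, lie on the same side of 0 in both. ISG15, CDC20 and TK1 lie on opposite sides, and the cloud of all genes shows no slope.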

How the data were processed

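Counts per gene from 12 pig right ventricular libraries were analysed. The authors deposited 1 table of whole-number counts of 35670 Ensembl genes. Per the submitters' processing notes the tools were Subread 1.6.2, HISAT2 2.1.0, SAMtools 1.7, Trimmomatic 0.33 and FastQC 0.11.7 on Sscrofa11.1, with no role or order stated. Whether counting used strand, and which annotation, is not given in the sources used here, so reads of overlapping antisense genes cannot be told apart. No symbol is given for 18030 genes, and 119 of these were named from a table of gene names. RefSeq positions (Sscrofa11.1) were looked up by symbol and found for 116 of 120 named genes.

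Counts of the 12 libraries were filtered with filterByExpr and scaled by TMM, and 7 dosed and 5 vehicle libraries were compared with the robust quasi-likelihood test of edgeR 4.0.16 in R 4.3.3, two-sided, with Benjamini-Hochberg adjustment over all genes tested and a threshold of 0.05. CPM use the scaled totals, log2 CPM a prior count of 2, and SE follow from the F statistic. Replicates are individual animals per the series text. The 2 schedules were compared in a fit with 3 groups, and M8 with M9 names in a fit with 4 groups. Libraries hold 40621934 to 61144663 counts. The scripts were checked on simulated data.

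Named genes are the 15 of lowest p in each direction and 5 per direction of each further test. These were taken from genes that carry a symbol and average 1 CPM or more. At any level, up to 4 members with the smallest p of each of 16 lists described were added. So were NPPA, NPPB, COL1A1, COL3A1, VEGFA, PECAM1, TSPOAP1 and SIK1. Not every gene so chosen is given, and 1 gene that the rule names is not reported here. MYL2, MYH7 and CD3E were added to show the tissue. The comparison, the 39 gene lists and the naming rule were chosen with earlier results of these data known. No list was tested as a set, and lists share members (890 tested entries of 868 distinct genes). Same-numbered libraries did not deviate together (correlations of -0.07 to 0.20 over 6 pairs, 2 of them over 0.1), so the numbers were not taken as pairs. Alternatives were RLE and upper-quartile scaling, no filter or 1 CPM in 5 libraries, no robust spread, DESeq2 1.42.0, limma-voom (limma 3.58.1) with quality weights, all 17 libraries with or without a covariate for M1 names, 3 groups, the first digit or suffix of the name or Y-linked expression as covariate, only _R, M8 or M9 libraries, a block by replicate number and each library left out in turn. Leaving out multidose 5 and vehicle control 4 was chosen after seeing the data.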

Additional observations from a re-analysis of the deposited data

Results flagged for a closer look

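A library was marked where its gap to the nearest other library of its group exceeded Dixon's 95% limit. This held for 18 of 222 groups of values tested (8.11%). The limit marks about 1 in 20 independent groups by chance. These groups were chosen by p or list and share genes and libraries, so the share cannot be read as an excess. Multidose 5 accounted for 8 and vehicle control 4 for 5 of the 18.

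Multidose 5 lay above the other 6 dosed libraries in 4 interferon response genes, with log2 CPM of 10.66 for ISG15 (others 4.05 to 4.82), 8.67 for RIGI (3.92 to 5.11), 6.13 for USP18 (3.01 to 3.53) and 9.08 for IFI44L (5.16 to 5.69). Its median of the interferon list was 2.84 above the vehicle mean (others -0.57 to -0.18). It was also apart in COX1 at 16.50 log2 CPM (15.79 to 16.07), in JAG1 at 5.21 (5.69 to 5.85), and in the number of genes with a count, 18359 (19666 to 20242).

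Vehicle control 4 lay above the other 4 controls in FKBP5 at 8.12 log2 CPM (5.59 to 6.07), PER1 at 7.54 (6.28 to 6.57) and OTUD1 at 4.78 (2.98 to 3.38), and in the median of the glucocorticoid list at 0.99 (-0.37 to -0.12). It was below them in ERG28 at 3.75 (3.98 to 4.05).

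The remaining values were spread over 3 libraries. Multidose 7 was high in SPRY1 at 4.88 log2 CPM (4.43 to 4.61). Single dose 2 was low in DLG5 at 3.22 (3.79 to 4.10) and FOSL2 at 2.94 (3.30 to 3.53). Single dose 4 was low in MYL3 at 11.90 (12.30 to 12.59) and in the median of the mitochondrial ribosome list at -0.10 (0.12 to 0.28).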

How the results depend on the processing

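The count of 0 genes called between dosed and vehicle animals was the same under 29 of 30 alternatives, and DESeq2 called 1. Of the 94 gene results examined, 83 kept their sign under every alternative run. Many of these genes were chosen for a small p in the same libraries, so a kept sign is no separate evidence. Genes at an unadjusted p under 0.05 numbered 688 in the main comparison, 1102 without a low-count filter, 1913 over all 17 libraries without a covariate and 406 to 1020 with 1 library left out. Genes without overlap numbered 35, and 43 to 137 with 1 library left out. For single dose against vehicle the calls were 8 with DESeq2 and 0 to 1 with 1 library left out (ACSM5). For multidose against single dose they were 2 with DESeq2 and 0 to 1 with 1 library left out (ACSM5). For the difference between M8 and M9 names they were 27 with DESeq2 and 0 to 1 with 1 library left out. The single genes there were ENSSSCG00000031741 without vehicle control 2 and CHI3L2 without vehicle control 5, named after their values were seen. The cause of the differences between tools was not tested, except that DESeq2 replaced outlying counts in groups of at least 7 libraries, in 51 genes, with ISG15, RIGI, USP18 and IFI44L of multidose 5 among them.

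With the replicate number as a block, 0 genes were called between dosed and vehicle animals, 567 had an unadjusted p under 0.05, and 1 gene (ACSM5, log2 fold change 7.08) was called for single dose against vehicle. The block turned COL1A1 to 0.24 and COL3A1 to 0.20 on the log2 scale, and the list medians to 0.13 for T and natural killer cell markers and 0.24 for macrophage and monocyte markers. Multidose shares only number 5 with the other groups, so no paired analysis was possible for its 2 comparisons.

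Signs turned as follows, in log2 fold changes. DESeq2 gave -0.55 for ISG15, -0.14 for RIGI and -0.13 for IFI44L, limma-voom gave -0.23 for ISG15 and -0.026 for IFI44L, and the suffix covariate gave -0.092 for ISG15. Libraries with the suffix _R alone gave -0.66 for ISG15, -0.053 for RIGI, -0.061 for USP18, -0.27 for IFI44L and 0.011 for COL3A1. M9 names alone gave -0.55 for ISG15, -0.18 for RIGI, -0.031 for USP18, -0.37 for IFI44L, -0.018 for ATP6, -0.036 for COX1, 0.012 for LOXL2, 0.21 for COL1A1 and 0.37 for COL3A1, and M8 names alone 0.067 for VEGFA. All 17 libraries without a covariate gave 0.46 for COL3A1. Without multidose 5 and vehicle control 4 the values were -0.57 for ISG15, -0.14 for RIGI, -0.042 for USP18, -0.049 for IFI44L and 0.079 for ADAMTS4.
With 1 library left out the ranges were -0.60 to 3.18 for ISG15, -0.16 to 1.72 for RIGI, -0.15 to 1.39 for IFI44L, -1.66 to 0.0054 for ADAMTS4, -0.29 to 0.090 for COL1A1, -0.14 to 0.12 for COL3A1 and -0.18 to 0.068 for VEGFA.

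Scarce genes rest on few counts. Only 5 vehicle animals, 2 of them with M9 names, carry every comparison with vehicle, and dosing cannot be told apart from other features of single animals where 1 library sets a value.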

Other observations

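Some lists not described above leaned to one side without a gene called. All 5 red blood cell genes tested were negative, with a median log2 fold change of -1.15 (-0.89 among M8 and -1.86 among M9 names). An unadjusted p under 0.05 was found for 1 of them (20%, against 2.76% of all genes tested). Without vehicle control 4 the median was -0.86 and that count was 0. Atrial and epicardial or mesothelial markers were negative in 9 of 10, with a median of -0.27. Here 1 negative member had an unadjusted p under 0.05 (10%, against 2.76% of all genes tested), or 0 without vehicle control 4. Cytoplasmic ribosomal protein genes were positive in 53 of 62, with a median of 0.046 and 0 at an unadjusted p under 0.05.

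The sign of other lists turned between the names. The median of 29 cell cycle and DNA replication genes was 0.083, with -0.33 among M8 and 0.74 among M9 names, and that of 27 heat shock chaperones was -0.13, with 0.13 and -0.32. NF-kB feedback and vascular adhesion genes had 8 of 16 members negative. Of these, 3 had an unadjusted p under 0.05 (18.8%, against 2.76% of all genes tested), and 0 without vehicle control 4. Of 15 MHC class I and II presentation genes 8 were positive, with a median of 0.00075, and without multidose 5 there were 2 positive and a median of -0.24.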
